A study of Homo sapiens with 43 samples.

Results

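In SUDHL5, an established line of diffuse large B-cell lymphoma, 722 regions of the genome gained a peak of the kinase CDK9 after 30 nM CDK-TCIP1 that was recorded by antibody ab239364 and by no list of a second CDK9 antibody, CST2316S. They were taken from 17265 regions made by merging the peaks of the 8 SUDHL5 CDK9 lists where these overlapped by at least 1 bp on chromosomes 1 to 22 and X, and they make up 4.18% of them. A member had an ab239364 peak in both treated lists, in neither ab239364 DMSO list and in none of the 4 CST2316S lists. The members were thus chosen by the presence of peaks in these 8 lists. Their CDK9 values in SUDHL5 are given as a description, and only the other 25 lists are compared. The ab239364 lists held 915 and 3508 peaks with DMSO, against 9262 and 11148 after CDK-TCIP1. The part of list length in the gains was not tested. With only the 915 top peaks of each CDK9 list, 16 regions met the rule.

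The treated SUDHL5 cells received 30 nM CDK-TCIP1 for 2 h for CDK9 and for 2 h or 4 h for RNA polymerase II, and the controls received DMSO for 2 h for CDK9 and for 4 h for the polymerase. Treated KARPAS422 cells, a second line of the same lymphoma, received 30 nM CDK-TCIP1 for 2 h and their controls DMSO for 2 h, with CDK9 mapped by CST2316S alone. All groups carried 0.1% DMSO. There were 2 lists per group, and 3 for total polymerase (Pol II), of chromatin immunoprecipitation with sequencing. The labels do not state that the replicates came from different cultures, and p-values measure only the spread between these samples. The 33 lists held 138 to 28951 peaks and no read totals, so the depth is unknown and whether a peak is listed depends on it to an extent that was not tested. In the DMSO cells, all 5 B-cell markers had a peak of polymerase phosphorylated at serine 5 at a gene end in both lists, as had 1 of 5 T-cell markers (CD3E), none of 5 myeloid markers and none of 10 genes of silent tissues.

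CDK9, with a cyclin T subunit, forms P-TEFb, the kinase that releases RNA polymerase II from its pause just downstream of gene starts. It phosphorylates the polymerase's C-terminal repeats at serine 2 (Ser2P, found toward gene bodies and 3′ ends), while serine 5 (Ser5P) is marked near the start. BCL6 represses transcription in B cells of the germinal centre. CDK-TCIP1 joins a ligand of CDK9 to a ligand of BCL6 in 1 small molecule, so that it can hold both proteins.

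Most of the members lay at genes. Of the 722, 561 (77.7%) were within 1 kb of either end of a protein-coding gene, 118 (16.3%) lay inside a gene away from its ends, and 43 (5.96%) met no protein-coding gene. The promoters of 5 of the best-ranked gene-end members are shown because the later results return to them. Each covers 250 bases before the gene start to 50 after it, on the gene's own strand, from RefSeq (GRCh38.p14). Capitals mark any match, on either strand, to CCGGAAG (the core bound by ETS factors), GGGCGG (the GC box bound by SP factors), CCAAT (the box bound by NF-Y) or AAGATGGCG (a YY1 motif).
CEP44: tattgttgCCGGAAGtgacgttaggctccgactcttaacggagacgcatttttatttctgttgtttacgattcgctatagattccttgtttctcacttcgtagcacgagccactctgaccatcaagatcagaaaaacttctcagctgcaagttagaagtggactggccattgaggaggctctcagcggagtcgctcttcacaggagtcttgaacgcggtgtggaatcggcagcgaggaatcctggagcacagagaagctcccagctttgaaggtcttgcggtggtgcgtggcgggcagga
DCAKD: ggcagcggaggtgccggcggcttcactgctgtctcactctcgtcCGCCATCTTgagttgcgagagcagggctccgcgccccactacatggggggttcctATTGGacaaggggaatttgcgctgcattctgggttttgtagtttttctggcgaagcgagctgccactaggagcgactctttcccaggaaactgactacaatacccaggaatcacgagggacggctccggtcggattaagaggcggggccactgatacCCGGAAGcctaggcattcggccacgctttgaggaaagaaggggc
CCDC43: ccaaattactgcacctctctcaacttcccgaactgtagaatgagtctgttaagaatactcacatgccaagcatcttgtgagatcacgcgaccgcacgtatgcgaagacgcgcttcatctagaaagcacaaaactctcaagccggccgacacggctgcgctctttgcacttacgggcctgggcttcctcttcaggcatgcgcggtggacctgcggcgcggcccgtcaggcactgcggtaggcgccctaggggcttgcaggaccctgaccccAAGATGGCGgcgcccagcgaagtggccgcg
EXD3: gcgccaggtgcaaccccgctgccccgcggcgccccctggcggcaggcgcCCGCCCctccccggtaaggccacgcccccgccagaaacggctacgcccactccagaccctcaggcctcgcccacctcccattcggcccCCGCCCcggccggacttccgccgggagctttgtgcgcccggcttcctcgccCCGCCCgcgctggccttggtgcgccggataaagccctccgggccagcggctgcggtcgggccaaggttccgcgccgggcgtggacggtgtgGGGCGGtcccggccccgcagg
ERGIC2: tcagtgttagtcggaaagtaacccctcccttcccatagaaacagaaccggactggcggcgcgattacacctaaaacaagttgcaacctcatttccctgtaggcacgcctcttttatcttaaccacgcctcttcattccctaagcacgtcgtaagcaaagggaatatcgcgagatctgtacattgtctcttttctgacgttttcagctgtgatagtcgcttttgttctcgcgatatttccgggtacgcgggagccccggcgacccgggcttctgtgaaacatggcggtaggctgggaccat
These windows lie at chr4:174283661-174283960 (CEP44, plus strand), chr17:45061080-45061379 (DCAKD, minus strand), chr17:44689727-44690026 (CCDC43, minus strand), chr9:137423113-137423412 (EXD3, minus strand) and chr12:29381123-29381422 (ERGIC2, minus strand). The strongest treated summit lay 34 bases before the start of CEP44 and 27 before that of EXD3. It lay 3, 40 and 55 bases after the starts of DCAKD, CCDC43 and ERGIC2. CEP44 holds 1 ETS core, and DCAKD holds 1 ETS core, 1 CCAAT box and 1 YY1 motif. EXD3 holds 4 GC boxes and a GC content of 78.7%, CCDC43 holds 1 YY1 motif, and ERGIC2 holds none of these letters in this window.

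The ab239364 peaks of the members were of modest height. Fold enrichment, which is the authors' value of each peak over the background of its own list, had a median of 3.77 (2.15 to 17.2) in treated replicate 1 and 3.36 (1.77 to 19.1) in treated replicate 2. The members' median rank by q was 5632 of 9262 peaks and 6769 of 11148 peaks. Both ranks exceed the full length of either DMSO list of this antibody (915 and 3508 peaks). Regions gained with both antibodies had median folds of 4.41 and 4.56 in the same lists, and regions with ab239364 peaks in all 4 of its lists and none with CST2316S had 9.55 and 9.72. The members thus sat in the lower part of each list.

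**Figure D1:**
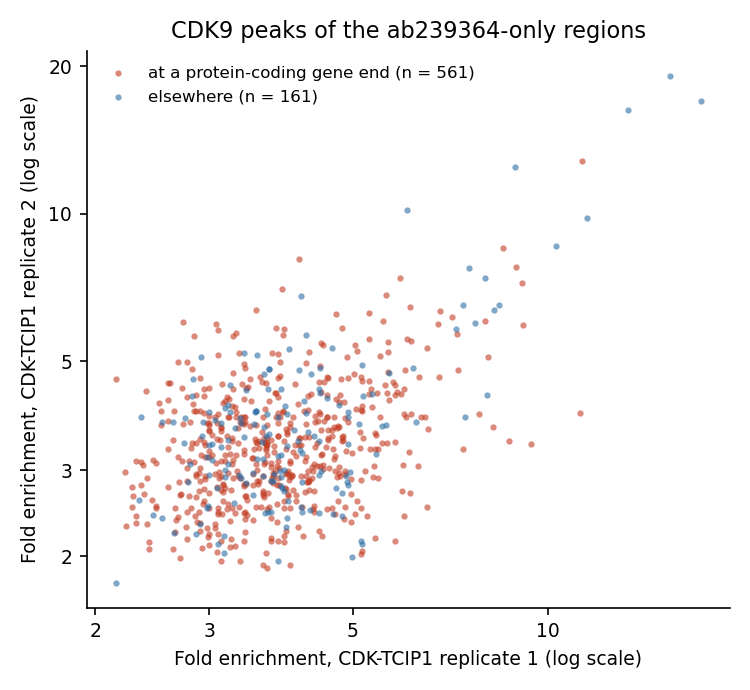
Fold enrichment of the ab239364 peak of each of the 722 member regions in treated replicate 1 (x) and treated replicate 2 (y), both on log axes, by whether the region lies within 1 kb of a protein-coding gene end. Most points lie near the medians of 3.77 and 3.36, and a few regions, several of them away from protein-coding gene ends, exceed 10 in both lists.

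Some members lay close to the limits of the choice, while their median -log10 q was 5.85 in treated replicate 1 and 6.80 in treated replicate 2. The weakest inside had a -log10 q of 1.348 in treated replicate 1 (PPIL2, a peptidyl-prolyl isomerase, and the shared end of PSMB1 and TBP) and 1.333 in treated replicate 2 (COA7, an assembly factor of the respiratory chain). Outside were 702 regions with ab239364 peaks in both treated lists and in 1 of the 2 DMSO lists, and no CST2316S peak. The -log10 q of that DMSO peak ranged from 1.313 to 369.1, with a median of 10.8. Also outside were 312 regions that met the ab239364 conditions but had a peak in 1 of the 4 CST2316S lists, in 309 cases a treated one, with -log10 q from 1.351 to 29.3 and a median of 5.03. Another 2994 regions had an ab239364 peak in 1 treated list alone. In all, 3486 regions (20.2% of those merged) gained ab239364 peaks, and 2761 of them had a CST2316S peak in at least 1 treated list.

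CST2316S peaks were mostly far from the members. The nearest peak of a treated CST2316S list lay within 1 kb of 43 members (5.96%) and within 10 kb of 19.1%, and the median distance was 71.7 kb. For regions with ab239364 peaks in all 4 of its lists and none with CST2316S, 10.7% were within 10 kb and the median was 85.2 kb. The members were also narrow, with a median merged width of 716.5 bp (339 to 3596), against 2026.5 bp for regions gained with both antibodies and 972.5 bp for those gained with CST2316S alone. Distance and width both come from the same 8 lists that chose the members. Members could hold no CST2316S peak, and a wider region is more likely to meet one, so both are descriptions of the choice.

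The places of the 3 kinds of gain differed. At gene ends lay 77.7% of the 722 members, 25.6% of the 1976 regions gained with both antibodies, 5.72% of the 1452 gained with CST2316S alone and 33.0% of all merged regions. Regions gained with CST2316S alone lay inside genes in 63.2% of cases, against 16.3% of the members. The 291 regions with ab239364 peaks in all 4 of its lists and none with CST2316S were the closest in place, with 93.5% at gene ends. Shares of regions are descriptions with no test, since regions are not replicates.

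**Figure D2:**
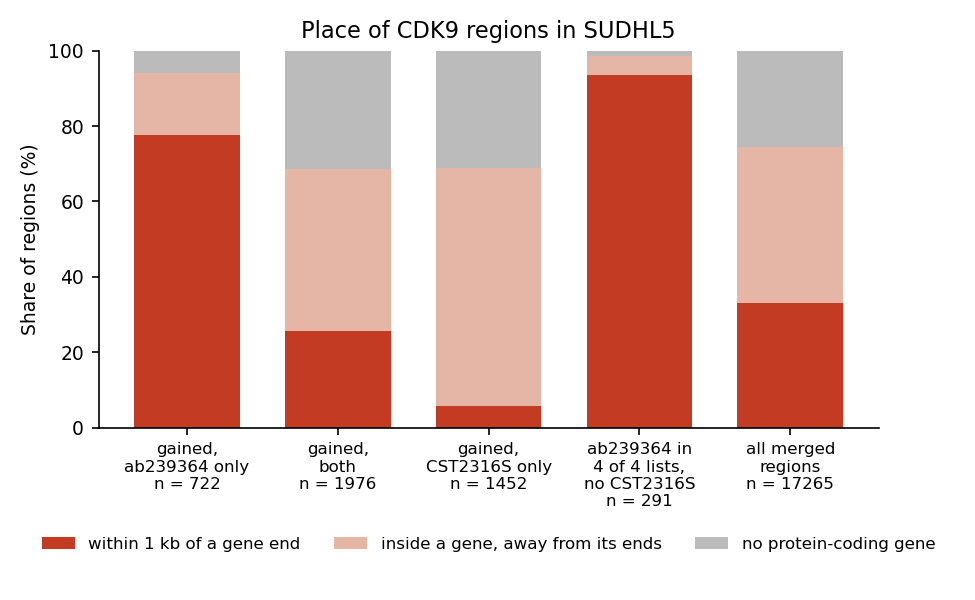
Share of regions (percent of each set, bars to 100%) within 1 kb of a protein-coding gene end, inside a gene away from its ends, or with no protein-coding gene, for the members at the left and 4 other sets of SUDHL5 CDK9 regions. Gene ends take 77.7% of the members and 5.72% of the regions gained with CST2316S alone.

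Where gene starts with a strand could be used, the members clustered just downstream of them. Of 699 members not on chromosome 8, whose starts were not used here, the strongest treated summit lay within 1 kb of a listed start for 477 (68.2%) and within 300 bases for 347 (49.6%). Within 1 kb the median position was 60 bases downstream, with quartiles 30 bases upstream and 241 downstream, and 319 of the 477 (66.9%) lay downstream. Regions gained with both antibodies had 19.4% within 1 kb, with a median position of 48.5 bases downstream and 55.5% of these downstream. Those gained with CST2316S alone had 3.72% within 1 kb. Regions with ab239364 peaks in all 4 of its lists were within 1 kb in 85.1% of cases and were centred on the start, with a median of -6.5 bases.

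**Figure D3:**
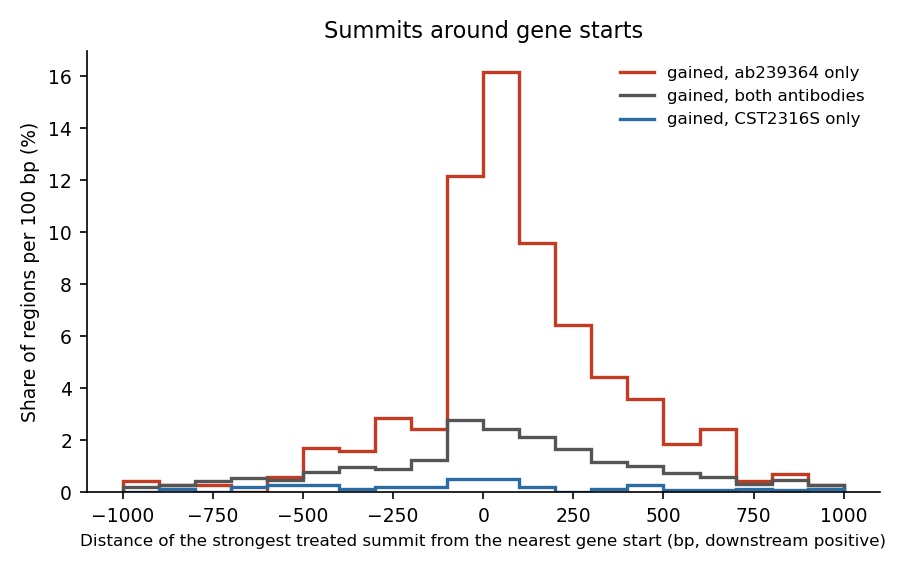
Distance in bp from the nearest listed protein-coding gene start to the strongest treated summit of each region (x, downstream positive, bins of 100 bp) against the share of all regions of that set (y, percent), for regions gained with ab239364 alone, with both antibodies and with CST2316S alone. The members peak in the bins around the start and extend further downstream than upstream.

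At 145 of the 561 gene-end members (25.8%) 2 or more protein-coding genes shared the region, as at a start shared by genes that run in opposite directions, so a peak cannot be given to one of them. The 10 best-ranked gene-end members were TTI2, NDUFC2, CEP44 with FBXO8, SPIB, ERGIC2, EXD3 with NOXA1, DCAKD with NMT1, CCDC43, DDX1 and SEC22B. TTI2, a cofactor in folding of PI3K-like kinases, had folds of 11.3 and 12.8 in the treated lists. NDUFC2, a subunit of respiratory complex I, had 8.94 and 7.80. The region of CEP44, a centriole protein, and FBXO8, an F-box protein (chr4:174283559-174284234), had 9.15 and 5.93. SPIB, an ETS-family factor of B cells, had 8.09 and 5.11, and SEC22B, a SNARE protein of the early secretory path, had 8.54 and 8.50. These folds rank peaks within a list and do not compare lists.

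Of the 5 best-ranked members away from protein-coding gene ends, 4 lay at genes of small nuclear RNAs. This was noticed after the values were seen. Of the 161 members away from protein-coding gene ends, 44 lay within 1 kb of the end of another annotated gene, 31 of them a long noncoding RNA gene and 5 a small nuclear RNA gene. The best-ranked of the 161 lay at RNVU1-6 (chr1:146051789-146052185), a variant U1 gene, with folds of 15.5 and 19.1. The others in the leading 5 lay at RNVU1-8 (chr1:147084338-147084764), with 17.2 and 16.97, and at RNU4ATAC inside CLASP1 (chr2:121530660-121531529), with 11.5 and 9.80. RNVU1-2A (chr1:144551493-144551880) followed with 13.3 and 16.3, and NORAD (chr20:36050889-36051331) with 8.90 and 12.5. U1 is the spliceosome's RNA for 5′ splice sites, U4atac belongs to the minor spliceosome, and NORAD is a long noncoding RNA that binds PUMILIO proteins. The variant U1 genes are near-identical copies, so their peaks are uncertain where reads can map to several of them. The fifth small nuclear RNA gene, RNU6-1, had 3.87 and 3.22. Small nuclear RNA genes lay at 5 of the 722 members (0.693%), at 2 of the 1976 regions gained with both antibodies (0.101%), at 0 of the 1452 gained with CST2316S alone and at 24 of all 17265 regions (0.139%). They lay at 1 of the 291 regions with ab239364 peaks in all 4 of its lists and none with CST2316S (0.344%).

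Polymerase marks at these genes were partly present. At RNVU1-6, Ser5P had folds of 24.9 and 17.5 at 2 h and 16.4 and 20.2 at 4 h of CDK-TCIP1, against 1 DMSO list with 13.8. At RNU4ATAC every Ser5P list had a peak, with folds of 12.9 and 12.5 at 2 h, 9.93 and 13.01 at 4 h, and 7.26 and 8.37 with DMSO. At RNVU1-2A the only one of the 6 Ser5P lists with a peak was replicate 2 at 4 h (10.2).

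The widest members were of another kind. The region at PGAM2, which lies inside DBNL, spanned 3596 bp and that inside LONP1, a mitochondrial protease, 3540 bp. Others among the widest were ADAMTSL4, DAXX with SMIM40, POU2F2 (OCT2, a B-cell transcription factor), NFE2L3, LYN (a kinase of B-cell receptor signalling), DALRD3 with NDUFAF3, and SPEN (a corepressor). Their merged widths ran down to 1896 bp. LONP1 had modest CDK9 folds of 3.67 and 3.53 but Ser5P folds of 40.1 and 32.0 at 2 h, 31.1 and 30.7 at 4 h, and 31.5 and 24.3 with DMSO.

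The promoters of the members were rich in CpG. In 560 RefSeq promoter windows of 473 genes that overlapped a member, the median GC content was 65.3% and the median ratio of observed to expected CpG was 0.866. That ratio was at least 0.6 in 94.1% of them and in 94.0% of 366 windows at regions with ab239364 peaks in all 4 of its lists, against 77.9% of 530 windows at regions gained with both antibodies, 30.0% of 40 at CST2316S-only gains and 62.2% of all 22132 windows. Among the 5082 windows with a Ser5P peak in both DMSO lists, which are promoters in use, it was 91.5%.

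ETS cores were common in the member windows. CCGGAAG, searched on both strands, was in 32.3% of member windows, 16.4% of windows at regions gained with both antibodies and 7.50% at CST2316S-only gains. It was in 23.3% of the windows with Ser5P in both DMSO lists, 29.2% of the windows at regions with ab239364 peaks in all 4 of its lists, and 12.8% of all windows. The YY1 motif AAGATGGCG was in 6.96% of member windows, against 10.4% of windows at regions with ab239364 peaks in all 4 of its lists, 5.00% with Ser5P and 2.42% of all. GGGCGG was in 68.8% of member windows, below the 74.1% of windows with Ser5P and above the 56.3% of all windows. CCAAT was in 33.8% against 36.3% with Ser5P and 34.6% of all. TATAAA, the TATA box, was in 4.11% against 5.14% and 9.46%. GCGCATGCG, a motif of NRF1, was in 3.21% against 4.55% and 2.36%. TTCCTAGAA, a BCL6 motif, was in 0 of the 560 windows and 0.289% of all, and its looser form TTCNNAGAA was in 3.39% against 3.89% of all. Matches of different motifs can share letters at their edges, and TTCCTAGAA is one case of TTCNNAGAA. A match is a description of letters and not of a bound site.

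Ser5P was the readout most often found at the members. After CDK-TCIP1, 81.9% and 82.7% of them had a Ser5P peak at 2 h and 64.3% and 83.2% at 4 h, against 73.4% and 64.4% with DMSO at 4 h. The means were 82.3% ± 0.588 at 2 h, 73.8% ± 13.4 at 4 h and 68.9% ± 6.37 with DMSO (SD, n = 2 lists each). Both 2 h lists lay above both DMSO lists, by 13.4 percentage points on average, while the 4 h lists overlapped with them (4.85 points). The exact two-sided permutation test gave p = 0.333 at 2 h, the smallest that 2 lists against 2 allow, and p = 1 at 4 h. Adjusted over the 7 comparisons of treated with DMSO lists, every p was 1. The 2 h and 4 h comparisons share their DMSO lists, and at 2 h the DMSO cells differ also in time. Over all merged regions the mean share with Ser5P changed by 5.44 points at 2 h and 0.736 at 4 h. Over regions with ab239364 peaks in all 4 of its lists and none with CST2316S it changed by 15.6 and 4.98 points.

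Ser5P was present with DMSO at most members. In 357 of the 722 (49.4%) all 6 Ser5P lists had a peak, and in 57 (7.89%) none did. Of all merged regions 27.3% had it in every list and 43.6% in none. For regions with ab239364 peaks in all 4 of its lists and none with CST2316S the shares were 49.5% and 6.87%.

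A few members gained Ser5P in every list. Gained here means a peak in every treated list and no DMSO list, which 2.73% of all merged regions met at 2 h and 1.47% at 4 h. Of the members, 52 (7.20%) gained it at 2 h and 19 (2.63%) at 4 h, while 4 and 6 lost it, against 0.707% and 1.26% of all merged regions. Of the 153 members with no Ser5P peak in either DMSO list, 34.0% gained it at 2 h, against 5.14% of the 9163 merged regions with none. Among the 61 such regions with ab239364 peaks in all 4 of its lists and none with CST2316S, the share was 27.9%. Of all regions of that set 5.84% gained Ser5P at 2 h and 1.37% at 4 h. At gene ends 8.20% of members and 4.88% of merged regions gained it at 2 h.

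The best-ranked of these at 2 h were CEP44 with FBXO8, DCAKD with NMT1, ANKRD45 with KLHL20, GFM2 with NSA2, and RAD18. At CEP44, Ser5P had folds of 6.92 and 7.43 in the 2 h lists and 5.90 in replicate 2 at 4 h, and no DMSO list had a peak. DCAKD, which resembles the last enzyme of coenzyme A synthesis, and NMT1, an N-myristoyltransferase, share a region (chr17:45061162-45061619) with Ser5P folds of 4.58 and 4.94 at 2 h and 5.21 in replicate 2 at 4 h. RAD18, a ubiquitin ligase for PCNA, had 3.31 and 4.95 at 2 h. GFM2, a mitochondrial ribosome recycling factor, and NSA2, a ribosome assembly factor, had 5.19 and 7.99 at 2 h. At 4 h the leading ones were KYAT1 with LRRC8A, ZNF646 with ZNF668, PGAP1, LETM2 with NSD3, and ZNF572, and at all 5 both 2 h lists had a peak too. LRRC8A is a subunit of volume-regulated anion channels, and NSD3 is a histone H3 lysine 36 methyltransferase.

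Ser2P was found at most members too, with a wide spread between lists. It was at 33.5% and 77.7% of the members at 2 h and 73.4% and 71.3% at 4 h of CDK-TCIP1, against 74.1% and 56.8% with DMSO. Replicate 1 at 2 h, whose list was the shortest of the 6 at 6519 peaks, stood far below the rest. The mean difference from DMSO was -9.83 points at 2 h (55.6% ± 31.2 against 65.4% ± 12.2) and 6.93 points at 4 h (72.4% ± 1.47), with exact permutation p = 1 for both and groups that overlap. Without replicate 1 at 2 h the difference was 12.3 points, and without DMSO replicate 2 that at 4 h was -1.73 points.

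Single members that gained Ser2P were few. At 2 h 1 member (0.139%, against 0.232% of all merged regions) gained it, at TNRC18, and at 4 h 14 did (1.94%, against 1.71%). The 4 h gains were led by CCDC43, ANKRA2 with UTP15 (a ribosomal RNA processing factor), TNRC18, ITGB1 (integrin beta-1) and WDR45B (an autophagy protein). At CCDC43, Ser2P had folds of 4.67 and 4.40 in the 4 h lists and 5.76 in replicate 2 at 2 h, and no DMSO list had a peak. Losses numbered 9 at 2 h and 6 at 4 h, against 1.77% and 1.11% of all merged regions.

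Total Pol II peaks were on average rarer at the members than Ser5P or Ser2P peaks. They were at 9.42%, 34.9% and 22.4% of them at 2 h, 0.693%, 27.7% and 12.6% at 4 h, and 3.88%, 24.7% and 17.7% with DMSO. The lowest share was in the shortest Pol II list (138 peaks) and the highest in the longest (4000 peaks), and the part of list length in these values was not tested. The difference from DMSO was 6.83 points at 2 h (22.3% ± 12.7 against 15.4% ± 10.6, SD, n = 3 each, exact permutation p = 0.5) and -1.75 points at 4 h (13.7% ± 13.5, exact permutation p = 0.8). The groups overlapped at both times, and the smallest p that 3 lists against 3 allow is 0.1. With lists paired by replicate number, the treated share at 2 h was higher in 3 of 3 pairs (exact p = 0.25 by sign change, the smallest that 3 pairs allow). At 4 h it was lower in replicates 1 and 3 and higher in replicate 2 (exact p = 0.5 by sign change). Leaving out replicate 1 at 4 h or DMSO replicate 2 made the 4 h difference positive (4.73 and 2.86 points). Gains were 1 member at 2 h (0.139%, the same as in all merged regions), at ESCO1, a cohesin acetyltransferase, and 0 at 4 h (0% of all). No member lost Pol II at either time, against 0.0116% and 0.0463% of all merged regions. Over the 9 Pol II lists, 5 members (0.693%) had a peak in every one and 375 (51.9%) in none, against 0.620% and 76.4% of all merged regions. No polymerase peak of any kind was in the 21 lists at 40 members (5.54%), against 20.7% of regions gained with both antibodies, 72.1% of CST2316S-only gains and 41.2% of all. For regions with ab239364 peaks in all 4 of its lists and none with CST2316S the share was 4.12%.

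**Figure D4:**
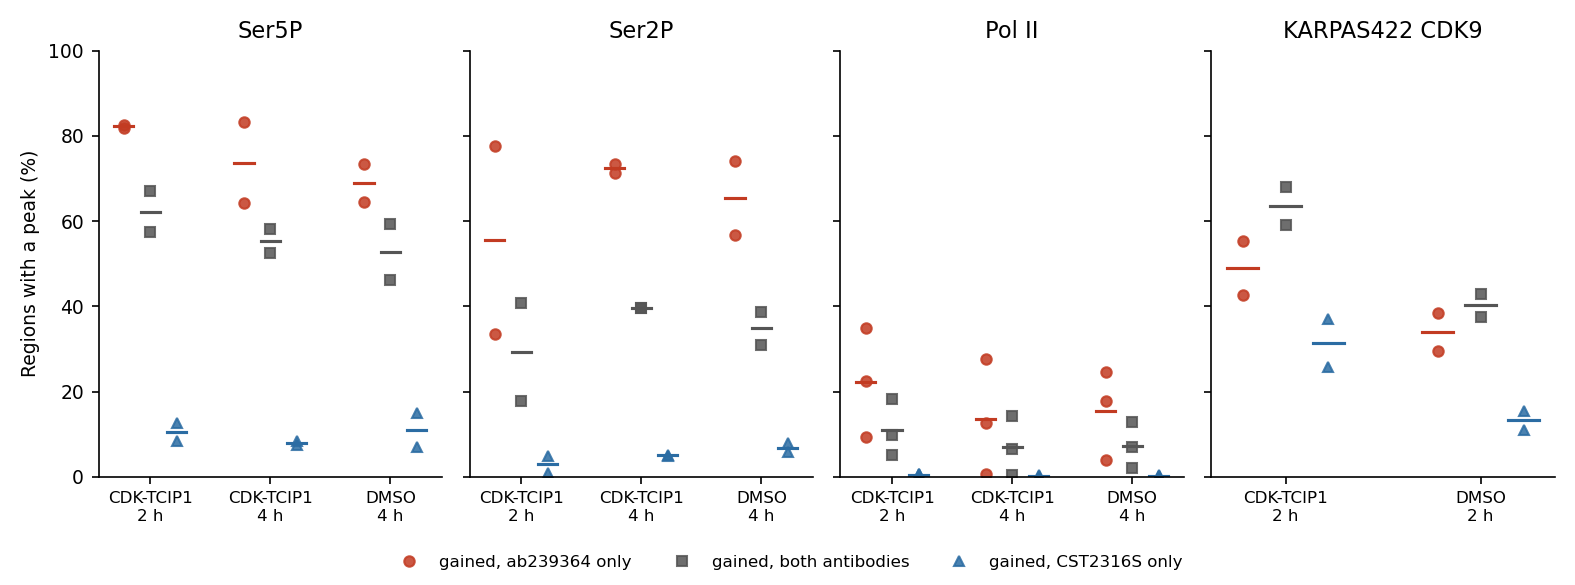
Percent of regions with a peak (y) in each deposited list (1 point per list, short lines are group means) for Ser5P, Ser2P and Pol II in SUDHL5 and CDK9 by CST2316S in KARPAS422, by treatment and time (x), for regions gained with ab239364 alone, with both antibodies and with CST2316S alone. For the polymerase readouts the members lie above both other sets within each list, and in KARPAS422 they lie between them.

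Within each list, more of the members than of the other gained regions had a polymerase peak. Ser5P was at 74.98% of members on average over its 6 lists, against 56.8% of regions gained with both antibodies and 9.81% of those gained with CST2316S alone. Ser2P was at 64.5% of members, against 34.6% and 4.94%. Pol II was at 17.1% over 9 lists, against 8.47% and 0.283%. The members were higher in every list of all 3 readouts. Each set of differences was tested by an exact two-sided sign-change permutation within lists, with Benjamini-Hochberg adjustment over 8 tests. Against regions gained with both antibodies the mean differences were 18.2 points for Ser5P and 29.9 for Ser2P (exact p = 0.03125, adjusted p = 0.0417, n = 6 lists each) and 8.64 for Pol II (exact p = 0.00391, adjusted p = 0.0156, n = 9). The Ser5P difference was 5.21 points where peaks had to cover 50% of a region (adjusted p = 0.219 by the exact permutation), 4.24 with summits (0.125) and 2.86 without treated ab239364 replicate 2 (0.357), and the Ser2P difference was 20.5, 17.9 and 17.3 points (0.05 in each). Against CST2316S-only gains they were 65.2, 59.5 and 16.8 points, with the same exact and adjusted p-values. Lists of treated and DMSO cells enter together, so these tests speak of the places and not of the treatment. Regions with ab239364 peaks in all 4 of its lists, DMSO included, and none with CST2316S were not tested against the members. Of these regions 49.5% had Ser5P in every list and 37.1% Ser2P, against 49.4% and 28.4% of members. No Pol II list had a peak at 48.5% of them, against 51.9% of members.

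The differences from regions gained with both antibodies moved with place. Among regions at gene ends only, a subset chosen once values were known, Ser5P was at 79.8% ± 10.2 of 561 members and 84.4% ± 6.11 of 505 regions gained with both antibodies (SD, n = 6 lists), a difference of -4.59 points (adjusted p = 0.125 by the exact permutation). Ser2P was at 68.5% and 66.0%, a difference of 2.54 points (adjusted p = 0.125, exact), and Pol II at 18.99% and 22.4%, a difference of -3.36 points (adjusted p = 0.0469, exact, n = 9). Away from protein-coding gene ends the members were higher in every list, with Ser5P at 58.2% of 161 members against 47.3% of 1471 regions, Ser2P at 50.4% against 23.8%, and Pol II at 10.6% against 3.71%. There the adjusted p-values by the same exact test were 0.0417, 0.0417 and 0.0156. Of these, 31 of the 161 members and 160 of the 1471 regions lay at an end of a long noncoding RNA gene. The part of such genes in the differences was not tested. Against CST2316S-only gains the members at gene ends were higher in every list, with Ser5P at 79.8% against 35.3% of 83 regions and Ser2P at 68.5% against 26.1% (adjusted p = 0.0625 for both by the exact permutation).

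**Figure D5:**
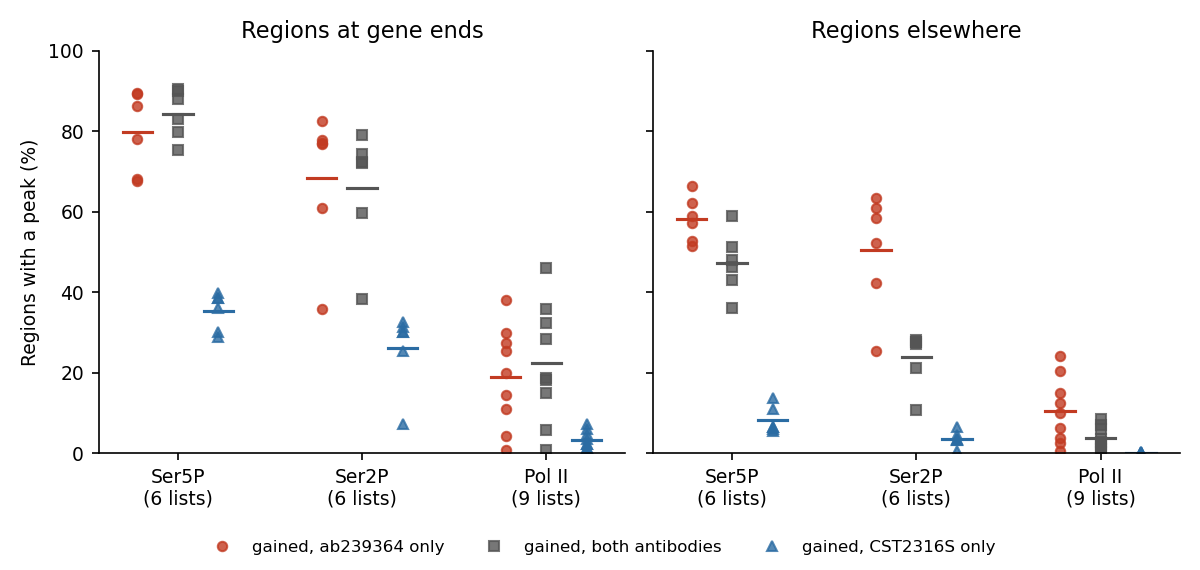
Percent of regions with a peak (y) in each list of Ser5P, Ser2P and Pol II in SUDHL5 (1 point per list, treated and DMSO together, short lines are means), for regions at protein-coding gene ends at the left and elsewhere at the right. At gene ends the members and the regions gained with both antibodies lie close (79.8% and 84.4% for Ser5P), and elsewhere the members lie higher (58.2% and 47.3%).

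In KARPAS422 the antibody that held no peak at the members in SUDHL5 did list many of them. CST2316S had a peak at 55.4% and 42.7% of the members after CDK-TCIP1, against 29.6% and 38.5% with DMSO. The mean was 49.0% ± 9.01 in treated KARPAS422 and 34.1% ± 6.27 in DMSO KARPAS422 (SD, n = 2 each), a difference of 14.96 points with no overlap (exact permutation p = 0.333, the smallest possible). Over all merged regions the difference was 13.8 points. In 133 members (18.4%) all 4 KARPAS422 lists had a peak and in 254 (35.2%) none did, against 18.8% and 50.7% of all merged regions. At gene ends the mean share over the 4 lists was 45.9% of members and 49.3% of all merged regions. Away from gene ends it was 26.4% and 25.95%. Averaged over the 4 lists, 41.6% of members, 51.9% of regions gained with both antibodies and 22.3% of CST2316S-only gains had a peak. The members were below the first in 4 of 4 lists and above the second in 4 of 4 (exact p = 0.125 for each, the smallest that 4 lists allow).

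In KARPAS422, 71 members (9.83%, against 8.65% of all merged regions) gained CDK9, and 12 lost it, against 0.573% of all. Of the 406 members with no DMSO peak there, 17.5% gained one, against 12.8% of 11686 merged regions. The best-ranked gains were CEP44 with FBXO8, EXD3 with NOXA1, CCDC43, SEC22B and ITFG2 (a subunit of the KICSTOR complex of nutrient sensing). At CEP44 the KARPAS422 folds were 5.11 and 3.54 after CDK-TCIP1, and no DMSO list had a peak. At SEC22B they were 3.76 and 4.02, and at CCDC43 5.74 and 3.22, again with no DMSO peak.

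Member counts by gene list are given beside those of all genes. Of 19974 protein-coding genes 706 (3.53%) had a member at an end, and of the 5448 with Ser5P at an end in both DMSO lists 484 (8.88%) did. Among mitochondrial ribosomal protein genes it was 14 of 59 (23.7%), with Ser5P in both DMSO lists at 23 of the 59. Among them MRPL16 had CDK9 folds of 5.30 and 6.28 and MRPS22 had 3.75 and 5.21. The others were MRPL10, MRPL18, MRPL20, MRPL27, MRPL32, MRPL35, MRPL38, MRPS5, MRPS12, MRPS23, MRPS24 and MRPS28. Among oxidative phosphorylation genes it was 6 of 41 (14.6%), namely ATP5F1B, ATP5PB, COX4I1, COX7C, NDUFV1 and UQCRFS1. ATP5F1B had folds of 6.003 and 3.91, and a treated CST2316S peak lay 0.172 kb from its region.

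Among proteasome genes 8 of 31 (25.8%) had a member, with Ser5P in both DMSO lists at 17 of the 31. They were the core-particle genes PSMA2, PSMA3, PSMA4, PSMB1, PSMB3 and PSMB6, the base ATPase PSMC4 and the lid subunit PSMD11. PSMA3 had folds of 5.46 and 2.89 and PSMB6 had 4.47 and 5.45. MRPL32 and PSMA2 share 1 region, so it counts in both lists. Aminoacyl-tRNA synthetases had 3 of 20 (GARS1, HARS1 and RARS1). No test of a list was made.

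Lists of regulators held from 1 to 4 members each. Immediate-early genes had 4 of 21, namely the AP-1 factors JUN and JUND, the phosphatase DUSP6 and IER5. JUND had folds of 5.77 and 4.54, and a peak in every Ser5P and Ser2P list. A treated CST2316S peak lay 0.336 kb from its region. Anti-apoptotic genes had 2 of 10 (the IAP family members BIRC2 and BIRC5), pro-apoptotic genes 1 of 24 (CYCS, cytochrome c), and genes of cell-cycle arrest 1 of 20 (GADD45B). Genes of G1 and S phase had 2 of 20 (CCNE1 and E2F1). P-TEFb and elongation factors had 2 of 22 (AFF4, a scaffold of the super elongation complex, and NELFE, a subunit of a pausing factor). NF-kB genes had 1 of 16 (RELA).

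BCL6 targets and germinal-centre B-cell genes had 1 gene each with a member at an end, too few to compare with the share of all genes. Of 24 BCL6 target genes 1 had a member at an end, IRF7 (4.17%, at an end it shares with CDHR5), while 9 of the 24 had a CST2316S peak at an end, as had 2617 of all 19974 genes and 2044 of the 5448 with Ser5P. Of 20 germinal-centre B-cell genes 1 had a member at an end (SPIB), and of 10 plasma-cell genes 0 had one. Ser5P was at an end in both DMSO lists at 17 of the 20 germinal-centre genes and 7 of the 24 BCL6 targets. None was at any of 40 clustered histone genes, 25 SRSF and HNRNP splicing genes or 18 heat shock chaperone genes. Of the 72 cytoplasmic ribosomal protein genes 3 had one (RPL4, RPL13 and RPLP1). An ab239364 peak was at an end with DMSO at 37 of the 40 histone genes, 22 of the 25 splicing genes, 53 of the 72 cytoplasmic and 26 of the 59 mitochondrial ribosomal protein genes, and at 2739 of all 19974 genes. The part of this in the counts was not tested. None of the 5 B-cell markers had a member either, and 4 of them had an ab239364 peak with DMSO.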

How the data were processed

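ChIP-seq peak lists of 33 of 43 samples were used. For the 10 inputs no list was used. The submitters' processing notes name Bowtie2, Picard and MACS2 among the tools, and hg38 and dm6 as builds. Versions, the control of each call and any scaling to the Drosophila chromatin added per the labels are not stated in the sources at hand. The deposited lists give, per peak, the authors' fold enrichment, which is a ratio to the local background. They also give the authors' -log10 p and -log10 q, the lowest -log10 q being 1.301. Depth is unknown, so no counting interval is given. The labels' titles name the antibody CST2316S, while their protocol text orders its digits differently, and they give 2 h for the CDK9 DMSO samples where file names differ. The labels were followed.

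Peaks were merged with Python 3.11.15, NumPy 2.4.6 and pandas 2.3.3, leaving out 25 peaks on other contigs, and a list held a region when a peak overlapped it by 1 bp. Genes were the 19974 protein-coding genes of RefSeq on these chromosomes (GRCh38.p14, the build of hg38). That table holds no strand, so both gene ends were used. Gene starts came from the 22132 promoter windows of 15812 protein-coding genes, a table that is not complete. Shares per list were compared by exact two-sided permutation of lists, and sets by exact sign changes within lists. Both were checked on fixed values with a known p, and the choice of members and the overlap on simulated peaks. Replicate numbers are shared between groups. Same-numbered Pol II lists deviated together at 2 h (correlations of 0.397, 0.298 and 0.128) and at 4 h (0.494, 0.366 and 0.0958). Paired results are therefore given for Pol II at both times. With 2 lists per group the highest such correlation was 0.132 (Ser5P at 2 h), and the numbers were not taken to pair those lists.

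Named regions were the 10 at gene ends and 5 elsewhere with the best mean rank by q in the treated ab239364 lists, the 10 widest, members of the gene lists, and up to 5 gains per readout and time. One of the regions so named is not reported here. The members, gene lists and tests were chosen with earlier results of these data known. Alternatives were a stricter q, 50% cover, summits, equal numbers of top peaks, other gene-end windows, the replicate block and leaving out each list. Gene-end and other regions apart, and the small nuclear RNA genes, were looked at after values were seen.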

Additional observations from a re-analysis of the deposited data

How the results depend on the processing

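Of 362 alternative values of 17 results, 299 kept their direction and side of the threshold or stayed close. For the treated minus DMSO differences and the KARPAS422 comparisons of sets, the number of lists allows no p below 0.05. There, a kept value means an unchanged sign only. The number of members was 330 when treated peaks needed a -log10 q of at least 5, 16 with the 915 top peaks of each CDK9 list, and 722 to 2408 with 1 list left out. It was 2408 and 2127 without treated ab239364 replicates 1 and 2, and 1410 without DMSO replicate 2 of that antibody. The share at gene ends was 31.3% with the top peaks, 82.7% within 2.5 kb, 83.8% with all annotated genes, and 52.9% to 82.2% with 1 list left out. With the top peaks, the treated minus DMSO differences became -12.5 points for KARPAS422, 18.8 for Ser2P at 2 h and 4.17 for Pol II at 4 h, over 16 members only, and members minus CST2316S-only gains in KARPAS422 became -18.99 points.

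Members minus CST2316S-only gains was 61.4 points for Ser5P and 49.7 for Ser2P where peaks had to cover 50% of a region, 50.7 and 46.3 where a summit had to lie in it, and 44.5 and 42.4 at gene ends only. Members minus gains with both antibodies was 5.21 points for Ser5P and 20.5 for Ser2P with 50% cover, 4.24 and 17.9 with summits, and -4.59 and 2.54 at gene ends only, where Pol II was -3.36. In these cases the exact adjusted p was 0.05 or more, except 0.0469 for Pol II at gene ends, and the cause was not tested.

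With 1 list left out, members minus CST2316S-only gains was 37.7 to 67.5 points for Ser5P, 34.5 to 64.9 for Ser2P, 8.75 to 18.8 for Pol II and -1.20 to 27.4 for KARPAS422, the lowest of these without treated ab239364 replicate 2. Members minus gains with both antibodies was 2.86 to 19.5, 15.96 to 32.7, 3.83 to 9.68 and -24.1 to -7.69 points in the same order. With 5 lists of Ser5P or Ser2P the smallest adjusted p was 0.0833, so no call could be made. Without treated ab239364 replicate 2, which leaves all 6 lists, the calls were lost too, with 2.86 points for Ser5P against gains with both antibodies (adjusted exact p = 0.357) and an adjusted p of 0.05 for the other 3. Treated minus DMSO was 8.86 to 17.9 points for Ser5P at 2 h, -4.64 to 14.3 at 4 h (-4.64 without treated replicate 2), -31.9 to 12.3 for Ser2P at 2 h, -1.73 to 15.6 at 4 h, 0.508 to 13.2 for Pol II at 2 h, -8.77 to 4.73 at 4 h and 8.59 to 21.3 for KARPAS422.

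With the replicate number as a block only the p-values are computed otherwise, so the 7 differences are the same by construction (14.96 points for KARPAS422, 13.4 for Ser5P at 2 h). The lowest adjusted p by exact sign change was 0.875. With 2 pairs the smallest possible p is 0.5 and with 3 pairs 0.25, so no call could be made. For Pol II, where same-numbered lists deviated together, the difference was 6.83 points at 2 h (exact p = 0.25 by sign change) and -1.75 points at 4 h (exact p = 0.5 by sign change). Depth is unknown, and a peak missing from a short list is not shown to be absent.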
